A study of Mus musculus with 6 samples.

Results

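The aryl hydrocarbon receptor and the genes closest to it were examined in TM3 cells with and without 4-nitrophenol (PNP). The set held 8 genes: the receptor Ahr, its partners Arnt and Arnt2, its repressor Ahrr, and the target genes Tiparp, Cyp1a1, Cyp1a2 and Cyp1b1. They were found as the array probes whose accession belongs to one of these genes, which gave 10 probes for the 8 genes, out of 56605 probes and 23462 named genes on the array. TM3 is an established mouse line of Leydig origin, the testicular cells that make testosterone, and the labels call it a somatic line of male testis. The 3 control samples received 0 µM PNP and the 3 treated samples 10 µM PNP, both for 24 h, and no other agent or genetic change is named for either group. The dose was taken from each sample's own description, since the general treatment text gives 10 µM for the control samples too. All cells come from 1 line. Nothing in the labels states that replicates were grown as separate cultures, so each p-value rests on the spread among these 6 samples, and that spread may be technical only.

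The aryl hydrocarbon receptor is a ligand-activated transcription factor that waits in the cytosol bound to HSP90 and co-chaperones such as p23. On binding a ligand such as a dioxin, a polycyclic aromatic hydrocarbon or a tryptophan metabolite, it enters the nucleus, pairs with ARNT and binds DNA at a short core sequence. The cytochrome P450 genes of the CYP1 family, the repressor gene Ahrr and the ADP-ribosyltransferase gene Tiparp are its classical targets, and the products of the last pair damp the receptor in turn. In steroid-producing cells the pathway is studied because many of its ligands are environmental pollutants. PNP is a nitrated phenol that arises from the insecticide parathion and occurs in diesel exhaust.

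The core sequence bound by the receptor and ARNT is GCGTG, which reads CACGC on the opposite strand. The 250 bases before a transcript start were read for 7 of the 8 genes from RefSeq promoter windows of assembly GRCm38.p6, and Ahr was not among them. The start of the Cyp1a1 window lies 9685 bases inside the full annotated span of the gene, that of Arnt2 1703 bases and that of Arnt 23 bases, so these windows precede a transcript start and not the outer end of the gene. GCGTG, searched on both strands, was present in the windows of Ahrr, Tiparp, Cyp1a1, Cyp1b1 and Arnt, and these letters were not in the windows of Arnt2 and Cyp1a2. It was also present in 28.2% of all 32841 windows of this length, so its presence in 5 of 7 describes these windows only. The windows of 4 target genes are shown because they differ in whether the gene was measured above background (Tiparp, Cyp1b1) or not (Ahrr, Cyp1a1). Capitals mark GCGTG, or CACGC where the core lies on the opposite strand, and each sequence runs 5′ to 3′ towards that start.
Ahrr, chr13:74292332-74292581, minus strand: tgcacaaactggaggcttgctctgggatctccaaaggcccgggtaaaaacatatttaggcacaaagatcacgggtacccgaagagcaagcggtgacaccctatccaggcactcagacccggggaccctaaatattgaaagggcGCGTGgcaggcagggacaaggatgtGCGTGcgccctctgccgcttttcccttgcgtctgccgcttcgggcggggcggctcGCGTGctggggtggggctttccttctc
Tiparp, chr3:65528197-65528446, plus strand: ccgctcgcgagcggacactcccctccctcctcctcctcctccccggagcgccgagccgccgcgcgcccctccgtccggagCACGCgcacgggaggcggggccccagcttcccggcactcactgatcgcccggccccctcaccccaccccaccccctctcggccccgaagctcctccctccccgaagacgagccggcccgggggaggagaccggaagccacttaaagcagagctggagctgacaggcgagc
Cyp1a1, chr9:57697363-57697612, plus strand: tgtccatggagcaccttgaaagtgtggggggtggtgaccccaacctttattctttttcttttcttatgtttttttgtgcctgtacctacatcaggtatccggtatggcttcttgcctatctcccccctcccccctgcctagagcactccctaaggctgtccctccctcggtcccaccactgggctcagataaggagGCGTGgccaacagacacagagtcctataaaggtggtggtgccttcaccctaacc
Cyp1b1, chr17:79715062-79715311, minus strand: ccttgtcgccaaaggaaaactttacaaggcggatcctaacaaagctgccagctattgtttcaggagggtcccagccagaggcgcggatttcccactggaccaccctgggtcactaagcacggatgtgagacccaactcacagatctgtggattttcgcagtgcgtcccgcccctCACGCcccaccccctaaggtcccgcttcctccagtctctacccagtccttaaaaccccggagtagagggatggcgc
Ahrr held 3 cores, the nearest from 27 to 23 bases before the start. That copy was also the only match among the 7 windows to the longer TNGCGTG, which overlaps the core and occurs in 4.10% of all windows. The single core of Cyp1a1 lay 54 to 50 bases before the start, that of Cyp1b1 76 to 72 bases and that of Tiparp 170 to 166 bases, the last pair on the opposite strand. The E-box CACGTG, which ARNT dimers can bind, was in none of the 7 windows and in 6.02% of all.

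Each sample was hybridised to its own 1-colour Agilent array, and all 6 arrays lay on 1 slide and were read in 1 scan. Between 59.9% and 62.6% of spots were well above background, which means that the scanner software found the signal clearly brighter than its local background, and 0 spots were saturated. The software also marked spots as outliers for uneven signal, from 6.53% of spots on control 3 to 13.2% on PNP 2. These spots were left out of the main test, and the share of them was higher on each PNP array than on each control array. Levels are given as the scaled log2 signal, the log2 of the processed signal minus that array's 75th percentile. That percentile ranged from 4503 on PNP 1 to 5798 on control 3, so unscaled signals are not comparable between arrays. The control arrays 1 and 3 and PNP 2 lay in odd slide columns and the others in even ones. Every control and PNP 1 lay in slide row 1, and PNP 2 and PNP 3 in row 2. A row difference was not tested and cannot be told apart from treatment in PNP 2 and PNP 3. Of the Leydig cell markers, Star and Cyp17a1, a cholesterol transporter and a steroid-producing enzyme, and the regulators Nr5a1 and Gata4 were above background. Cyp17a1 was so on 2 of the PNP arrays and on all controls, the others on every array. Each of the 2 Hsd3b1 probes was so on at most 1 control array and 0 PNP arrays. Cyp11a1, which makes the first steroid of the pathway, the luteinizing hormone receptor Lhcgr, Hsd3b6 and Hsd17b3 were above background on 0 arrays, so several defining markers of the labelled cell type were not detected. Markers of other testis cells were also above background on every array of a group. These were 5 of 10 for Sertoli cells, 6 of 6 for peritubular myoid cells, 4 of 7 for macrophages, 1 of 6 for endothelium and 4 of 8 for germ cells. Of these, 4 of Sertoli cells, 5 of peritubular myoid cells, 4 of macrophages, 1 of endothelium and 2 of germ cells could be tested between PNP and control, and limma called 0 of them.

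Of the 8 genes, 5 were well above background on all 6 arrays: Ahr, Arnt, Arnt2, Tiparp and Cyp1b1. Ahrr, Cyp1a1 and Cyp1a2 reached that mark on 0 of the 6. Among all named genes, 15046 of 23462 (64.1%) were above background on every array of at least 1 group. No member passed the test between PNP and control. In the limma fit the adjusted p fell below 0.05 for 0 of 13138 genes (0%), with 0.148 as the smallest and with 856 genes (6.52%) at an unadjusted p below 0.05. For 3 members the test could be run as designed, for Ahr and Cyp1b1 it needed outlier-marked spots to be kept, and for the other 3 there was no level to test. In a bulk sample, fewer cells of a type and less RNA per cell cannot be told apart.

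The receptor gene Ahr lies at chr12:35497979-35534989 of GRCm38.p6 and is read by probe A_55_P2109613. Its processed signals were 15005, 13696 and 15129 in control 1 to 3 and 11657, 17349 and 15975 in PNP 1 to 3. After scaling, the log2 signals were 1.48, 1.30 and 1.38 in the 3 controls, against 1.37, 1.71 and 1.67 with PNP. PNP 1, the only PNP array in the slide row of the controls, lay within their range. PNP 2 and PNP 3 lay above every control, and the groups overlapped. The spot was marked as non-uniform on 5 of 6 arrays, all but control 3, so every value of Ahr except one carries that mark. With these spots kept, controls averaged 1.39 ± 0.09 (SD, n = 3) and PNP arrays 1.58 ± 0.19 (SD, n = 3), a log2 difference of 0.19 (SE 0.12). The limma adjusted p was 0.894, and the 95% interval of the difference ran from -0.08 to 0.47, or from 0.946-fold to 1.38-fold. Within slide columns, PNP minus control was 0.28 (odd, PNP 2 the only PNP array) and 0.22 (even, control 2 the only control). Over 16 other settings the difference ran from 0.07 to 0.30 with no call.

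**Figure D1:**
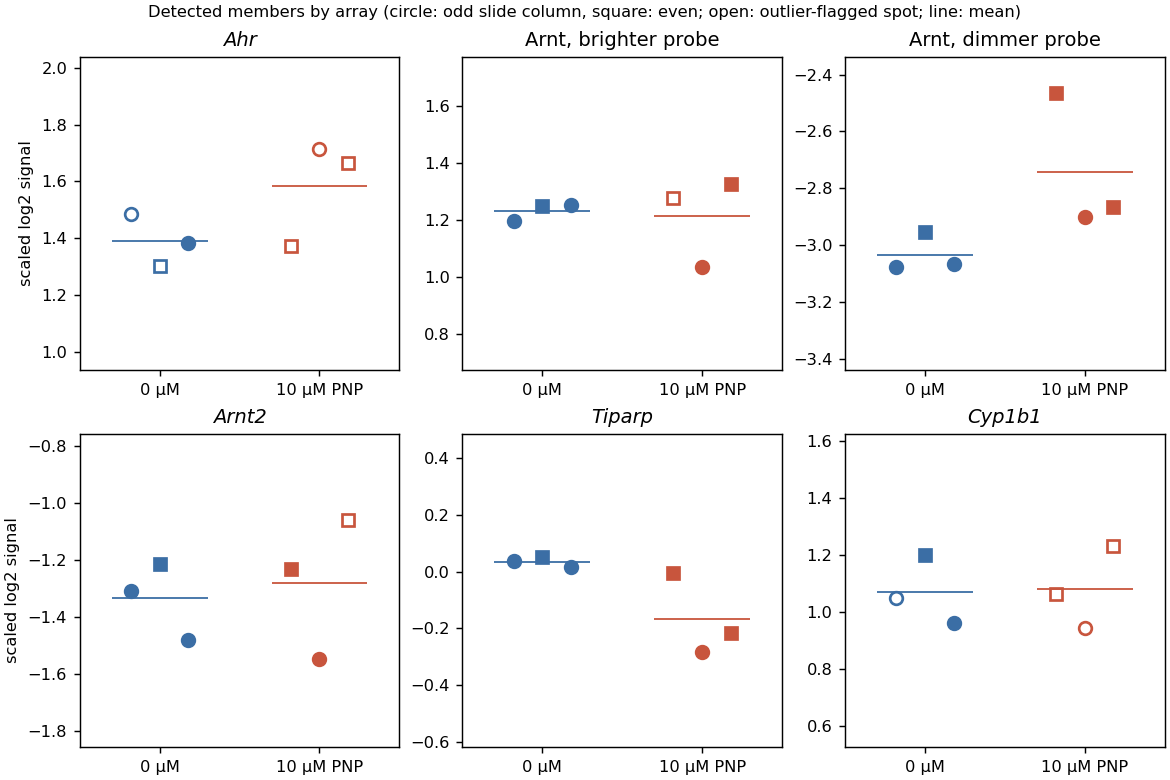
Scaled log2 signal (y axis) of each above-background probe of the receptor family on the 3 control and the 3 PNP arrays, as circles for odd and squares for even slide columns, with lines at the means of all 3 arrays and open symbols for spots marked as outliers. Tiparp and the dimmer Arnt probe are the only panels in which the groups do not overlap, Tiparp with PNP below the controls and Arnt with PNP above. For that Arnt probe the groups overlap before scaling.

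Arnt encodes the partner with which the receptor binds DNA, and the array reads it with 2 probes. Its gene lies at chr3:95434367-95497240. The brighter, A_55_P2100895, had scaled log2 signals of 1.20, 1.25 and 1.25 in the controls and 1.28, 1.04 and 1.33 with PNP, where the PNP 1 spot was marked as an outlier. The groups overlapped, with PNP 2 below every control and PNP 3 above. Without the marked spot the difference was -0.05 (SE 0.12, limma adjusted p = 0.963), with an interval from -0.34 to 0.24. The dimmer probe, A_55_P2814820, had -3.08, -2.95 and -3.07 in the controls and -2.46, -2.90 and -2.87 with PNP. At this scaling every PNP array lay above every control, PNP 1 by the widest margin. The processed signals overlapped, with 635, 716 and 692 in controls and 816, 707 and 691 with PNP. So did the log2 values deposited by the authors, with PNP 2 at 9.41 and control 2 at 9.44. The scaled means of this probe were -3.03 ± 0.07 (SD, n = 3) and -2.74 ± 0.24 (SD, n = 3), a difference of 0.29 (SE 0.14). This probe did not pass among 27222 probes (limma adjusted p = 0.732). Groups with no overlap and PNP higher occurred for 2871 of those probes (10.5%). At this scaling the 2 probes of Arnt differed in sign, neither past the test, and the brighter one also changed its sign under other settings.

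Arnt2, the paralogue of Arnt that is best known from brain, lies at chr7:84246274-84411741 and is read by probe A_52_P260696. On the control arrays it gave scaled log2 signals of -1.31, -1.21 and -1.48, and on the PNP arrays -1.23, -1.55 and -1.06, where the PNP 3 spot was marked as an outlier. The groups overlapped, and each array of an even slide column lay above each array of an odd one. The treatment difference was -0.06 (SE 0.14, limma adjusted p = 0.967) without the marked spot and 0.06 (SE 0.14, adjusted p = 0.960) with it. Even minus odd columns differed by 0.29 (SE 0.12) in a limma fit that also held the treatment and kept marked spots, with an unadjusted p of 0.0366 and an adjusted p of 0.396. In that fit 1761 of 15046 genes (11.7%) had an unadjusted p below 0.05 between columns, so Arnt2 is one of many.

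Tiparp, whose product ADP-ribosylates the receptor and limits its activity, lies at chr3:65528447-65555518 and is read by probe A_51_P514961. No spot of this probe was marked. Its processed signals were 5497, 5756 and 5855 in the controls, against 4487, 4343 and 4337 with PNP, which is 23.0% lower before arrays were scaled. The 75th percentile was itself lower on each PNP array than on each control array, so this percentage also holds the brightness of the arrays. After scaling, the log2 signals were 0.04, 0.05 and 0.01 on control arrays, against -0.01, -0.28 and -0.22 on PNP arrays. Every PNP array lay below every control, but PNP 1, the only PNP array in the slide row of the controls, by a small margin. The means were 0.03 ± 0.02 (SD, n = 3) and -0.17 ± 0.14 (SD, n = 3), a log2 difference of -0.20 (SE 0.10), so that the scaled signal was 13.1% lower with PNP. The test did not call it (limma adjusted p = 0.811, unadjusted p = 0.0844), and the 95% interval, 0.738-fold to 1.02-fold, includes no change. Groups without overlap and with PNP lower occurred for 493 of 13138 genes (3.75%), and for 256 (2.3%) of the 11110 genes that, like Tiparp, had a value on every array. A difference at least as low was found for 851 genes (6.48%). The difference stayed below 0 under all 17 other settings tried, from -0.28 to -0.09. Without PNP 1 it was -0.28, and without PNP 2 it was -0.14. Within the slide columns it was -0.31 (odd, PNP 2 the only PNP array) and -0.16 (even, control 2 the only control).

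Cyp1b1, a CYP1 enzyme that oxidises steroids and polycyclic hydrocarbons and is transcribed in many cells without an inducer, was the only CYP1 gene above background. It lies at chr17:79706940-79715061 and is read by probe A_51_P255456. On control arrays 1 to 3 the scaled log2 signals were 1.05, 1.20 and 0.96, and on PNP arrays 1 to 3 they were 1.07, 0.94 and 1.23. The groups overlapped, and in each group the odd-column arrays were below the even-column ones. The spot was marked as an outlier on control 1 and on every PNP array. With these spots kept, the means were 1.07 ± 0.12 (SD, n = 3) and 1.08 ± 0.14 (SD, n = 3), a log2 difference of 0.0091 (SE 0.11, limma adjusted p = 0.993). The 95% interval, 0.839-fold to 1.21-fold, leaves out a change of 1.5-fold either way, which is so for 12891 of 15046 genes (85.7%) in that fit. The sign of the difference changed between settings, as it can for a value this close to 0.

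**Figure D2:**
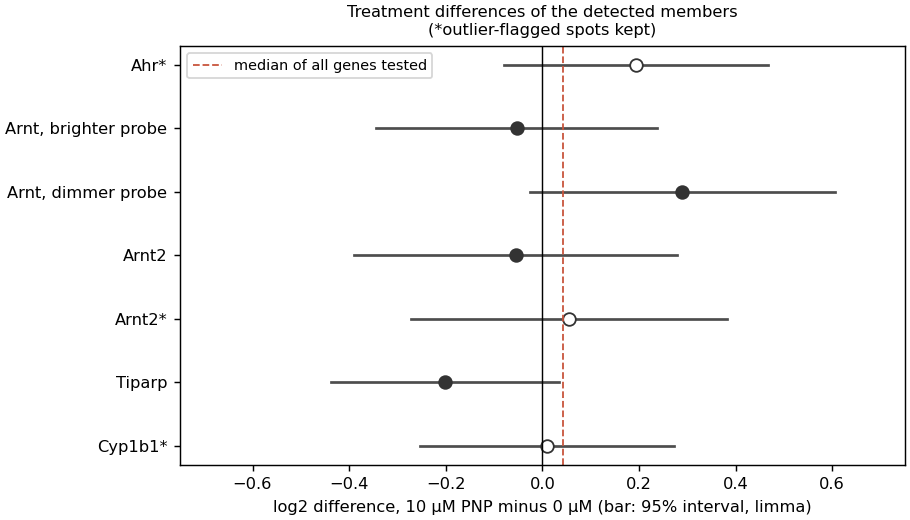
Log2 difference of PNP minus control (x axis) of each above-background probe of the receptor family with its 95% interval from limma, open where outlier-marked spots were kept, and a dashed line at the median of all genes. Every interval crosses 0, from the -0.20 of Tiparp to the 0.29 of the dimmer Arnt probe.

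The repressor gene Ahrr and the enzymes Cyp1a1 and Cyp1a2 are the receptor targets whose transcripts are low in most unexposed cells. The 2 Ahrr probes, A_51_P254425 and A_55_P2128388, gave processed signals from 23.2 to 24.9 and from 23.9 to 24.3 over the 6 arrays. The Cyp1a2 probe, A_52_P595871, gave 23.5 to 25.8. The lowest signal of a probe well above background was 112 to 122 on these arrays, far above these signals. The Cyp1a1 probe, A_51_P279693, gave 23.7, 89.0 and 23.9 in the controls and 22.4, 23.3 and 23.2 with PNP. Only control 2 stood above the others, at 0.732 of that array's lowest well-above signal, and it was not called well above background. The genes lie at chr13:74211118-74292331 (Ahrr), chr9:57687928-57703824 (Cyp1a1) and chr9:57676937-57683655 (Cyp1a2). No fold is given, as both groups are below background, and nothing follows on how much transcript the cells hold below that level.

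**Figure D3:**
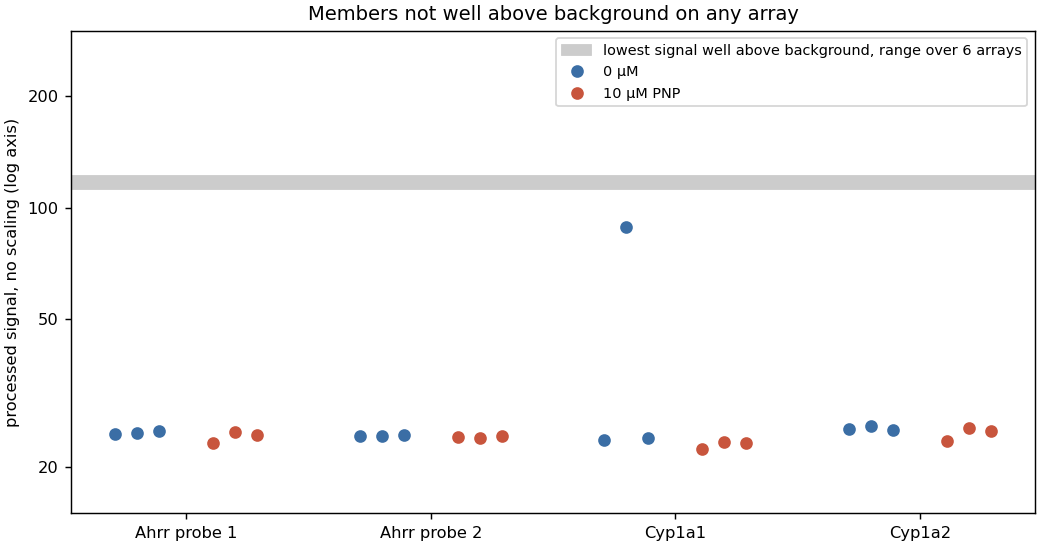
Processed signal (y axis, log scale) of the 4 probes of Ahrr, Cyp1a1 and Cyp1a2 on the 3 control and the 3 PNP arrays, and a grey band for the range, over the arrays, of the lowest signal well above background. The signals lie near 24, with the single value of 89.0 for Cyp1a1 on control 2, against a limit of 112 to 122.

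The genes around the receptor were followed in 6 lists of 73 genes. Of these, 48 could be tested and 0 were called. Relative to the array's 75th percentile, 40 of the 48 were higher and 8 lower with PNP (83.3% higher), where 63.0% of all genes tested were higher and the median difference of all genes was 0.04. With arrays scaled on their median instead, 27 of the 48 were higher (56.3%), against 44.2% of all genes. An unadjusted p below 0.05 was reached by 3 of the 48 (6.25%), near the 6.52% of all genes. With outlier-marked spots kept it was 6 of 60 (10%), against 5.93% of all genes. With only genes above background on all 6 arrays it was 3 of 45 (6.67%), against 6.56%. That filter leaves out 3 genes that entered the test through the controls alone. Of these, Tph1 and Aldh3a1 count among the 8 lower above, Selenbp1 among the 40 higher, and Tph1 among the 3 of 48. The groups did not overlap for 5 of 48 (10.4%), against 13.4% of all genes. With the slide column as a block, 7 of the 48 differences changed sign.

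In the cytosolic complex 8 of 9 genes were tested and 0 called; 8 of these 8 differences were above 0 (median 0.07), but 4 with median scaling. Among them were Hsp90ab1, an HSP90 isoform (0.09), and Ptges3, the co-chaperone p23 (0.07). The largest of the 8 was that of Stub1, a ubiquitin ligase (0.22, SE 0.12). The other HSP90 gene, Hsp90aa1, could be read only with marked spots kept, and then differed by 0.14.

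Among the other bHLH-PAS genes, which compete for or pair with ARNT or are built like it, 7 of 12 were tested, 6 with differences above 0 and 1 below (median 0.08). Hif1a, the oxygen-regulated partner of ARNT, differed by 0.08 (SE 0.12). Clock, of the circadian clock, differed by 0.11 and Bmal1, its partner, by -0.23 (SE 0.20). With the slide column as a block, Clock differed by 0.08 and Bmal1 by -0.07. Epas1, the second hypoxia factor, was among the 5 genes above background on 0 arrays. The coregulators gave 9 differences above and 1 below 0 for 10 tested genes of 16 (median 0.07), or 5 and 5 with median scaling, among them the acetyltransferase gene Crebbp (0.19) and the corepressor gene Ncor1 (0.11). A further 6 coregulators could be read only with marked spots kept, 2 with differences above and 4 below 0. Above 0 were Ncoa4 (0.14), a coactivator gene, and Cul4b (0.10), which encodes a ubiquitin ligase scaffold. Below 0 were the coactivator genes Ncoa1 (-0.10) and Ncoa2 (-0.33, SE 0.12, limma adjusted p = 0.836), the acetyltransferase gene Ep300 (-0.12) and the corepressor gene Nrip1 (-0.15).

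Other receptor targets were tested for 12 of 22 genes, 9 with differences above and 3 below 0 (median 0.08), or 7 and 5 with median scaling. With marked spots kept, 17 targets had a median of 0.030, against 0.035 for all genes. The transporter gene Abcg2 had scaled log2 signals of 0.68, 0.57 and 0.74 on control arrays and 0.41, 0.47 and 0.38 on PNP arrays, so the groups did not overlap. Its difference was -0.25 (SE 0.09, limma adjusted p = 0.740, unadjusted p = 0.0294). Nqo1, an oxidoreductase of quinones that NRF2 also controls, had -0.75, -0.44 and -0.60 in controls and -0.12, -0.99 and -0.02 with PNP, with PNP 2 below every control. Its difference was 0.22 (SE 0.24), and 0.03 with the slide column as a block. Slc7a5, a subunit of an amino acid transporter, differed by 0.29 (SE 0.13), and by 0.35 with the slide column as a block. Cyp2s1, a P450, differed by 0.03, and by 0.09 with that block. Nfe2l2, which encodes NRF2, differed by 0.11 and Ugt1a6a, a glucuronosyltransferase, by 0.07, but by -0.07 and -0.09 with the slide column as a block. These Nfe2l2 values are of its dimmer probe. Its brighter probe, which could be read only with marked spots kept, differed by 0.09 (SE 0.14). Aldh3a1, an aldehyde dehydrogenase, was well above background on the 3 control arrays and 2 PNP arrays and so entered the test through the controls alone. No difference is read from Aldh3a1, but it is counted among the 3 below 0. Selenbp1, another target, entered in the same way. It is counted among the 9 above 0, with no difference read from it. A further 5 targets could be read only with marked spots kept, 2 with differences above and 3 below 0. Above 0 were Ereg (0.20), which encodes a growth factor, and Exoc3 (0.04), and below 0 were Socs2 (-0.11), which encodes a suppressor of cytokine signalling, Hes1 (-0.40, SE 0.33), which encodes a repressor of the Notch pathway, and Serpinb2 (-0.51, SE 0.15, limma adjusted p = 0.836), which encodes a protease inhibitor.

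Enzymes of tryptophan metabolism, from which receptor ligands can arise, were tested for 6 of 9 genes. Of the differences, 4 were above and 2 below 0 (median 0.15). Kmo, a kynurenine hydroxylase, had scaled log2 signals of -3.44, -3.86 and -3.80 in controls and -3.49, -3.31 and -3.25 with PNP, and the groups overlapped through control 1. Its difference was 0.35 (SE 0.14, limma adjusted p = 0.740), and 0.40 with the slide column as a block. Tph1, the tryptophan hydroxylase of serotonin synthesis, was well above background on the 3 control arrays and on 1 PNP array. It entered the test through the controls alone, so no difference is read from it. The counts and the median of this list still include Tph1, among the 2 below 0. Kynu, a kynureninase, was above background on at most 1 array of a group. The electron supply of CYP1 enzymes was tested for 5 of 5 genes, with 4 above and 1 below 0 (median 0.06), or 2 and 3 with median scaling. Por, the reductase that feeds all microsomal P450s, differed by 0.18, and by 0.07 with the slide column as a block. Cyb5r3, a cytochrome b5 reductase, differed by -0.02 through its dimmer probe, and by 0.11 through its brighter probe, which could be read only with marked spots kept. Ephx1, the epoxide hydrolase that works beside CYP1 enzymes, differed by 0.06, and by -0.02 with the slide column as a block.

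**Figure D4:**
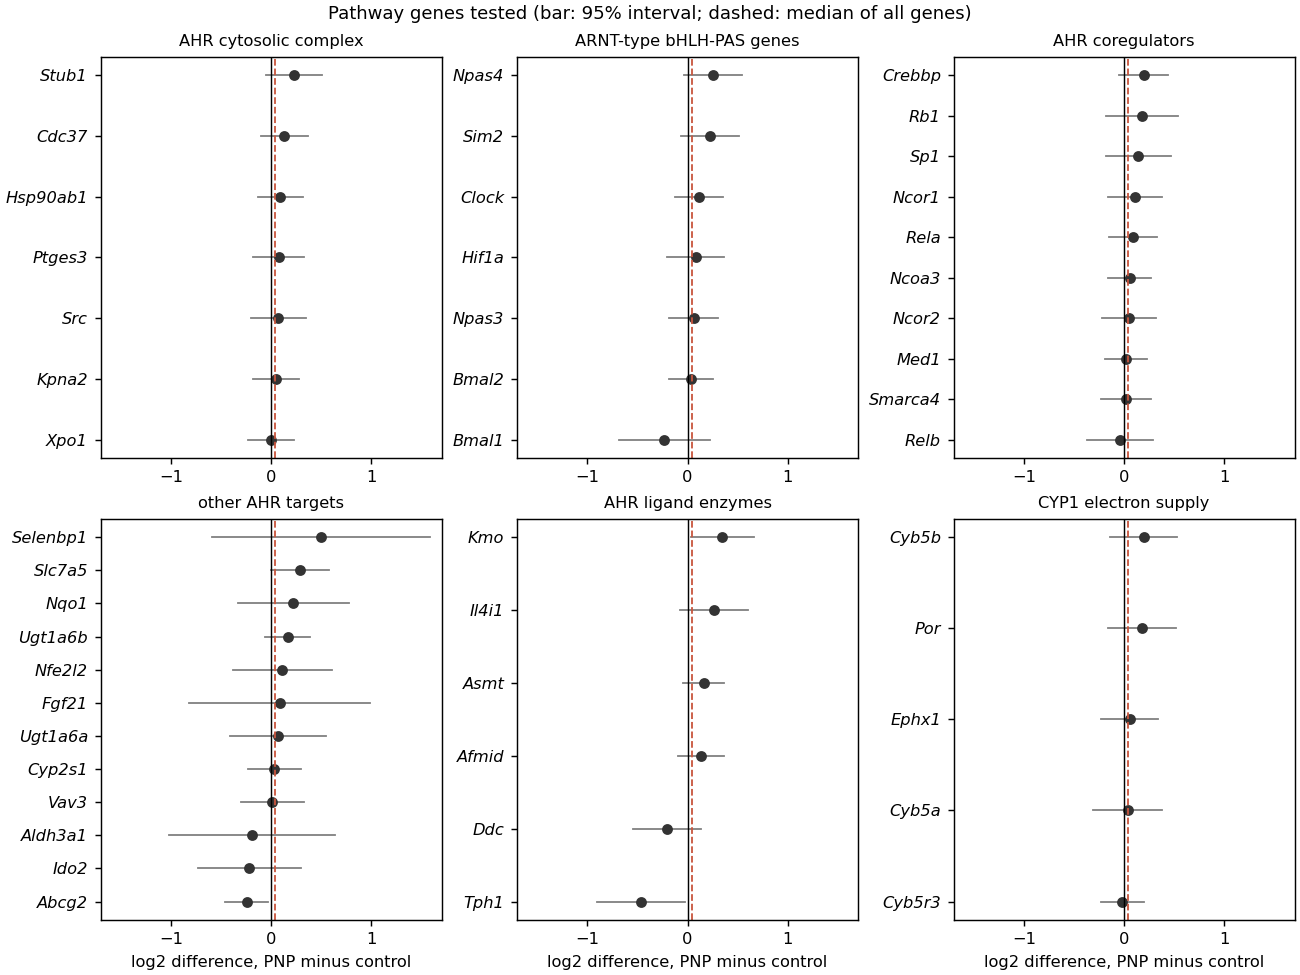
Log2 difference of PNP minus control (x axis) of tested genes of 6 lists around the receptor (1 gene is not drawn), each point a gene with its 95% interval, and a dashed line at the median of all 13138 genes (0.04). Among the drawn intervals, those of Abcg2, Kmo and Tph1 leave out 0, where Tph1, above background on 1 PNP array, is not read as a difference, and 0 of the 48 genes passed the adjusted threshold.

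Genes that followed the pattern of Ahr over the arrays were searched among 5283 candidates with marked spots kept. The candidates were genes whose SD over the arrays was at least that of Ahr (0.168). The Ahr pattern itself rests on a spot marked as non-uniform on 5 of 6 arrays. The likeness was the root mean square difference of the scaled log2 signals over the 6 arrays, each centred on its own mean, and its median over all candidates was 0.261. Among the 3 nearest were Rbm47 (0.0286) and Apoc2 (0.0329), which are named by likeness alone.

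**Figure D5:**
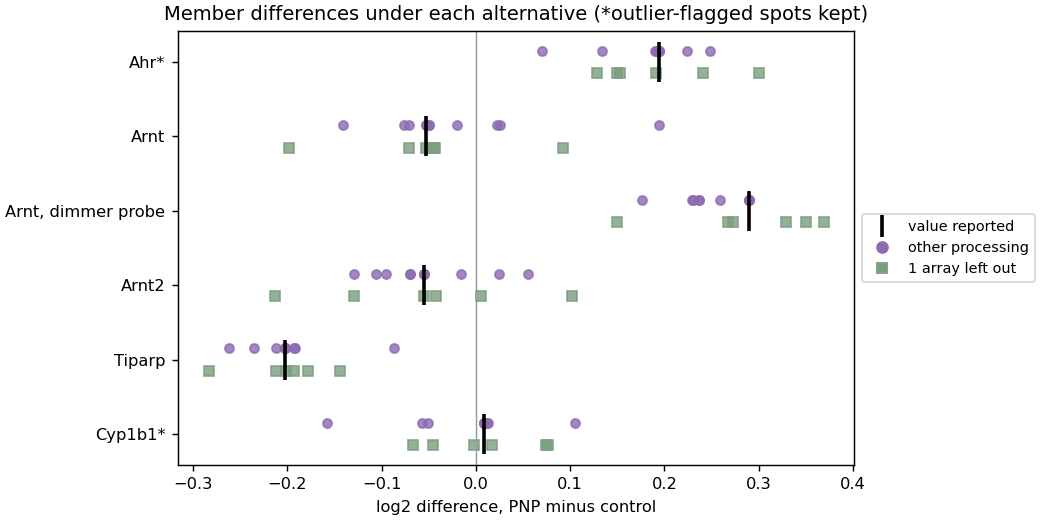
Log2 difference of PNP minus control (x axis) for the above-background members, with a bar at the reported value, circles for other processing and squares for fits with 1 array left out. Tiparp stays below 0 and Ahr and the dimmer Arnt probe above 0 in every setting shown, while Arnt, Arnt2 and Cyp1b1 lie on both sides of 0.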

How the data were processed

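Total RNA of TM3 cells was amplified and labelled with 1 dye, named Cy3, per the labels' protocols, while the deposited files hold red-channel columns, so the dye is unsettled. The authors deposited scanner intensity values made with Agilent Feature Extraction 11.5.1.1 per the file headers (10.7 per the submitters' processing notes), and a table of log2 values normalized by steps not given in the sources used here. Each column of that log2 table deposited by the authors correlated with its own array at 0.9996 or more and had a median of 8.27; its scale is that of the scanner signal, uncentred. The array was designed on mm9, while the coordinates and promoter windows here are of GRCm38.p6, and no coordinates of the files were used.

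Probes were named through unversioned RefSeq accessions (33767 of 56605). Log2 processed signals were scaled by subtracting the 75th percentile of the 59305 non-control spots of the same array. Outlier-marked spots were left out and spots of 1 probe averaged. A probe was tested if well above background on all 3 arrays of a group with at least 2 values per group, and the brightest tested probe stood for its gene. PNP minus control was tested with limma 3.58.1 (lmFit, eBayes) in R 4.3.3, two-sided, with no covariates and Benjamini-Hochberg adjustment over all 13138 genes, at 0.05. The fit was also tested on simulated data in which known changes were planted. Normexp, one of the alternatives, used the median spot signal, in place of the mean signal that the plan had named, and the median local background. Other alternatives were the scaling, the deposited values, detection filters, the probe of a gene, blocks for replicate number and slide column, array weights and leaving out each array. For Ahr and Cyp1b1 they were combined with marked spots kept, a choice made after seeing the data. Named were all members, fixed genes of the lists, any list gene with unadjusted p below 0.05, the 3 genes most like Ahr and Leydig markers. Of these, 1 list gene and 1 gene most like Ahr are not reported here. Stub1, Ncoa4, Cul4b, Ereg, Exoc3, Hes1, Serpinb2 and Selenbp1 were named after their values were seen. The genes and lists were chosen with earlier results of these data known. Precision is limited by the number of arrays, and log2 differences had 95% intervals of 0.28 either way in the median gene.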

Additional observations from a re-analysis of the deposited data

How the results depend on the processing

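No alternative gave a call to a gene of the receptor family. The count of genes with a limma adjusted p below 0.05 was 0 in the main setting (856 at unadjusted p) and 1 with the slide column as a block, and ran from 0 to 1 when each array was left out. The differences of Tiparp (17 alternatives), Ahr (16) and the dimmer Arnt probe (16) kept their sign. The Arnt difference of -0.05 became 0.026 with array weights, 0.19 as the mean of its probes and 0.023 with normexp, and ran from -0.20 to 0.092 with each array left out. That of Arnt2, -0.06, became 0.025 with normexp and 0.056 with outlier-marked spots kept, and ran from -0.21 to 0.10 with each array left out. That of Cyp1b1, 0.0091, became -0.051 with median scaling, -0.16 with normexp and -0.057 with the slide column as a block, and ran from -0.066 to 0.077 with each array left out. The cause was not tested. The median of the other receptor targets minus that of all genes was 0.036, and ran from -0.057 without PNP 3 to 0.092 without PNP 2. The genes with unadjusted p below 0.05 numbered 1407 with array weights, 1303 with no detection filter, 1745 without PNP 2 and 344 without control 3. Of the main setting's 856, 77.1% were higher with PNP, against 47.4% with median scaling, 60.9% with quantile normalization and 61.6% in the authors' deposited values. With the replicate number as a block, 0 genes passed, the smallest adjusted p was 0.984 and Tiparp differed by -0.20 (limma adjusted p = 0.984). Same-numbered deviations correlated at -0.31, -0.22 and -0.03 over 11110 genes. Each same-numbered pair had 1 array in an odd and 1 in an even slide column. These values therefore cannot tell whether the numbers pair the samples.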
